A study of Mus musculus with 8 samples.

Results

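The 9 genes described here encode neuropeptide precursors of the hypothalamus: *Pmch*, *Avp*, *Oxt*, *Hcrt*, *Pomc*, *Agrp*, *Trh*, *Gal* and *Cartpt*. Their members on the array were the probe sets annotated with one of these symbols alone, which gave 10 probe sets (2 for *Pomc* and 1 for each other gene) of 45037 tested, and 9 genes of 19761. The genes were chosen by their values on the 2 arrays of 16-week-old SAMR1 mice, where *Pmch* and *Avp* had been seen to be high, and the question put to them was whether the dissected cortex carried hypothalamic RNA on single arrays. RNA of the cerebral cortex was measured on Affymetrix Mouse Genome 430 PM arrays. SAMP8 is an inbred mouse strain with accelerated senescence and SAMR1 is the related strain that ages normally. Untreated male mice of both strains were taken at 16 weeks and at 1 year, which made 4 groups with 2 arrays in each. No source says which mouse each array measured, so errors and p-values cover the spread between arrays, which may be technical.

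A neuropeptide is cut from a larger precursor, stored in dense-core vesicles and released from the neuron to act on receptors of other cells or, for the magnocellular neurons of the hypothalamus, into the blood. The neurons that make a given hypothalamic peptide are few and lie together in small nuclei at the base of the brain, next to the thalamus and below the striatum and cortex. Transcripts such as *Pmch*, *Avp* and *Hcrt* are therefore used as markers of hypothalamic tissue, whereas *Cartpt* is also made by neurons elsewhere, including the cortex. In a piece of tissue, fewer cells of a type and less RNA per cell cannot be told apart.

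The promoter sequences of *Pmch*, *Avp* and *Oxt* are shown because these genes carry the contrast of this report. *Pmch* and *Avp* were high on the same arrays, while *Oxt*, the neighbour of *Avp* on chromosome 2, lay less than 1 log2 unit above its median there. Each is the 150 bases just before the RefSeq start site (GRCm38.p6), read 5′ to 3′ on the strand of the gene, with matches to any of 5 searched motifs in capitals.
*Pmch*, chr10:88090922-88091071, + strand: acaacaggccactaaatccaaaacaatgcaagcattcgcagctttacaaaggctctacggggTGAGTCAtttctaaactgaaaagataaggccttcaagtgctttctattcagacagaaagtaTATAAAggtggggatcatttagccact
*Avp*, chr2:130582589-130582738, − strand: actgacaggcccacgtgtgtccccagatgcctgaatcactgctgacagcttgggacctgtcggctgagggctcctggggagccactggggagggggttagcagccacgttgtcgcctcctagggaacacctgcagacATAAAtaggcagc
*Oxt*, chr2:130576019-130576168, + strand: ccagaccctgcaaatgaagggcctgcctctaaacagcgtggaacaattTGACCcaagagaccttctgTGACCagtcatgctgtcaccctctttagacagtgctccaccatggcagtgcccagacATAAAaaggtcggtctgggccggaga
The motifs, searched on both strands, were the TATA box TATAAA, its part ATAAA, the AP-1 site TGACTCA, the cyclic AMP response element TGACGTCA and the nuclear receptor motif GGTCA. The *Pmch* window held TATAAA, with its first base 27 bases before the start, and TGACTCA read from the other strand, beginning 88 bases before it. The *Avp* and *Oxt* windows held ATAAA without the leading T, at 13 and 26 bases before the start. The *Oxt* window also held GGTCA from the other strand at 102 and 83 bases, and neither *Pmch* nor *Avp* held it. Of all 32851 promoter windows of this length in the table, 7.57% held TATAAA, 24.1% ATAAA, 2.84% TGACTCA, 1.36% TGACGTCA and 23.1% GGTCA. A promoter was listed for 8 of the 9 genes, and 5 of the 8 windows held ATAAA. *Hcrt* and *Pomc* shared TATAAA with *Pmch*, and *Cartpt* was the only one of the 8 with TGACGTCA. These matches are a description of the letters in the window.

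*Pmch* encodes the precursor of melanin-concentrating hormone, a peptide of the lateral hypothalamus and zona incerta that acts on feeding and sleep. Its log2 RMA signal was 7.21 and 4.93 on the 2 SAMR1 16 weeks arrays, 3.69 and 3.76 on the SAMR1 1 year arrays, 3.56 and 3.76 on the SAMP8 16 weeks arrays, and 3.70 and 3.63 on the SAMP8 1 year arrays. Both SAMR1 16 weeks arrays were above all others, and the other 6 arrays lay within 0.20 log2 units of each other. Against the median of those 6 arrays, the signal was 11.4-fold higher on SAMR1 16 weeks replicate 1 and 2.35-fold higher on replicate 2. On the 6 arrays *Pmch* stood at percentiles 31.3 to 37.4 of the probe sets. Without detection calls, signal and background cannot be told apart there, and the folds depend on that level. The means of the SAMR1 groups were 6.07 ± 1.61 (SD, n = 2) at 16 weeks and 3.72 ± 0.05 at 1 year, and those of the SAMP8 groups were 3.66 ± 0.14 and 3.66 ± 0.05. The 3 groups other than SAMR1 at 16 weeks did not differ beyond their spread.

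*Avp* encodes the precursor of vasopressin, which is made by magnocellular neurons of the paraventricular and supraoptic nuclei and by the suprachiasmatic clock neurons, and which makes the kidney retain water. Its log2 signal was 4.96 and 6.53 on the SAMR1 16 weeks arrays, 3.40 and 3.61 on the SAMR1 1 year arrays, 3.39 and 3.45 on the SAMP8 16 weeks arrays, and 3.31 and 3.29 on the SAMP8 1 year arrays. Both SAMR1 16 weeks arrays were again above the rest, but here replicate 2 was the higher one. The signal was 2.96-fold (replicate 1) and 8.78-fold (replicate 2) that of the median of the other 6 arrays, whose values spanned 0.32 log2 units. Those 6 values stood at percentiles 21.7 to 32.4 of the probe sets, so these folds also depend on a level that background may set. The means of the SAMR1 groups were 5.74 ± 1.11 (SD, n = 2) at 16 weeks and 3.50 ± 0.15 at 1 year, and those of the SAMP8 groups were 3.42 ± 0.04 and 3.30 ± 0.01. SAMR1 at 1 year and SAMP8 at 16 weeks overlapped, and both SAMP8 1 year arrays lay below those 2 groups.

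**Figure D1:**
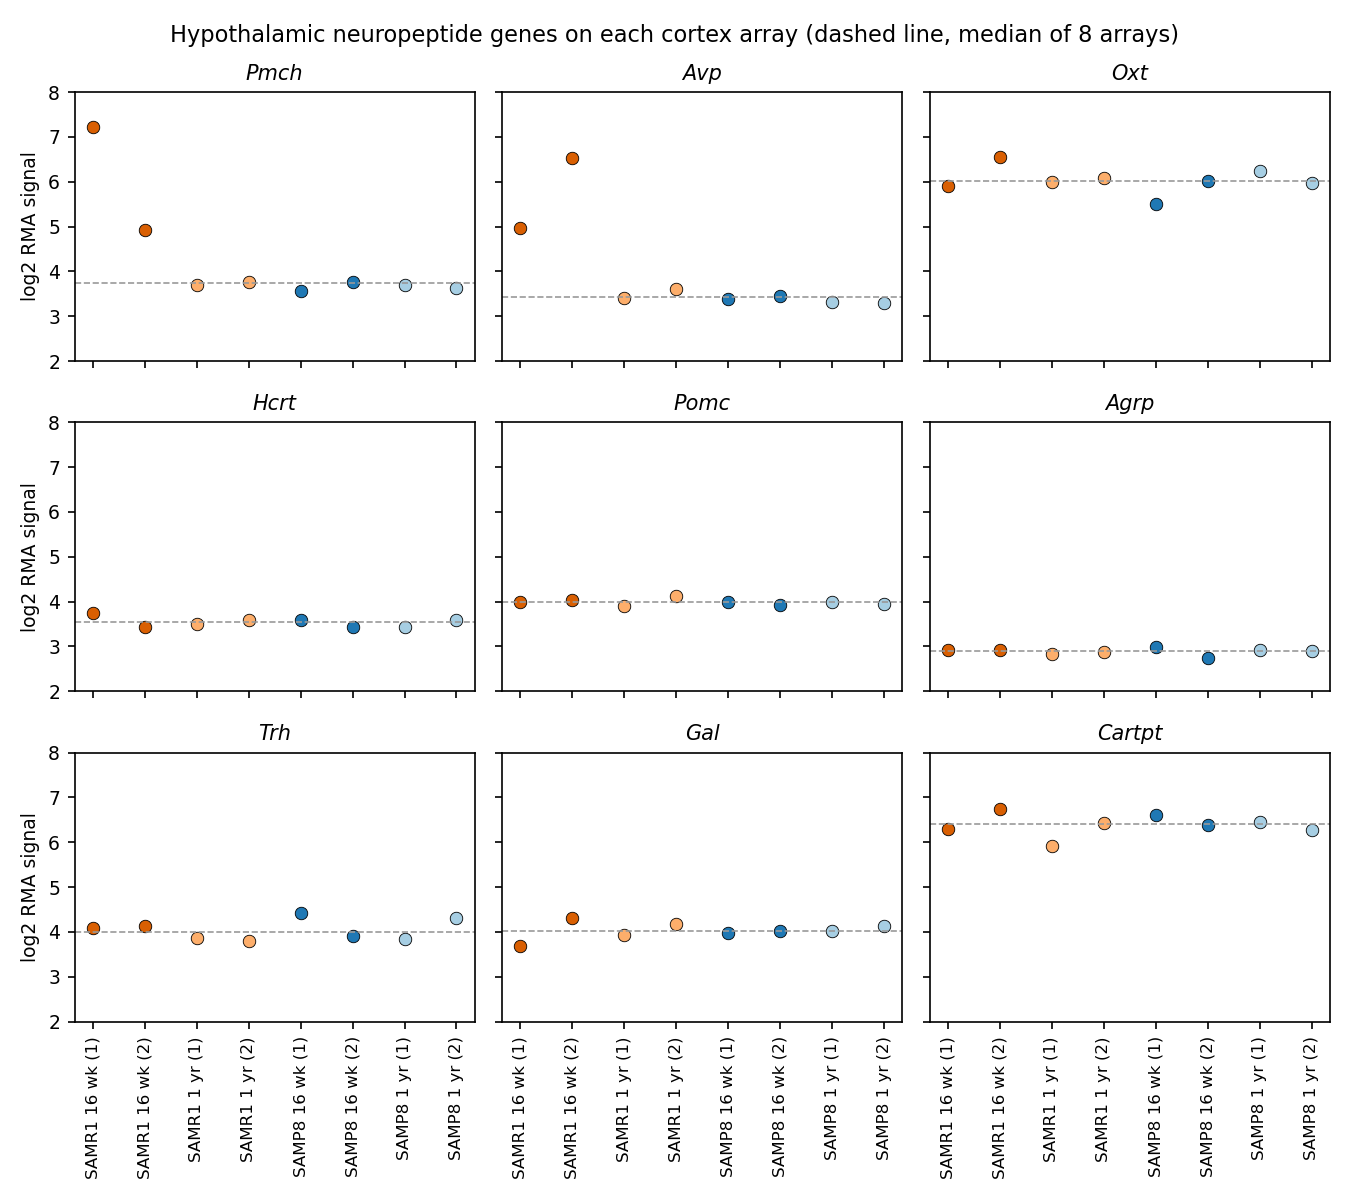
Log2 RMA signal (y axis) of the 9 neuropeptide genes on each of the 8 arrays (x axis, replicate number in brackets), coloured by group, with the median of the 8 arrays as a dashed line. *Pmch* reached 7.21 and *Avp* 6.53 on different SAMR1 16 weeks arrays, while no other gene lay 1 log2 unit above its median on any array.

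The 2 arrays of the group thus carried these transcripts in opposite order. *Pmch* was 4.86-fold higher on replicate 1 than on replicate 2, and only 1 of the 19761 genes had a larger excess on replicate 1. *Avp* was 2.97-fold higher on replicate 2, where 4 genes had a larger excess. Over the 8 arrays the Pearson correlation of *Pmch* and *Avp* was 0.641, which rests on the SAMR1 16 weeks arrays.

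The magnocellular partner of vasopressin lay less than 1 log2 unit above its median on these arrays. Its signal was already at percentiles 67.0 to 79.2 on the 8 arrays. An equal gain in signal moves a high log2 value less than a low one, so its log2 change is not comparable in size with that of *Avp*. *Oxt*, which encodes the precursor of oxytocin, the hormone of milk ejection and labour, read 5.90 and 6.54 on the SAMR1 16 weeks arrays, 5.99 and 6.09 on the SAMR1 1 year arrays, 5.51 and 6.02 on the SAMP8 16 weeks arrays, and 6.24 and 5.96 on the SAMP8 1 year arrays. SAMR1 16 weeks replicate 2, the array with the highest *Avp*, also had the highest *Oxt*, 0.30 log2 units above the next array outside the group. SAMR1 16 weeks replicate 1 had the second lowest *Oxt* of the 8 arrays, so the groups overlapped.

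The arousal peptide of the lateral hypothalamus was highest on the same array as *Pmch*, by a small margin. *Hcrt*, which encodes the precursor of the orexins that hold animals awake, is made by neurons that lie among the *Pmch* neurons. It read 3.74 and 3.44 on the SAMR1 16 weeks arrays, 3.49 and 3.58 on the SAMR1 1 year arrays, 3.59 and 3.43 on the SAMP8 16 weeks arrays, and 3.43 and 3.58 on the SAMP8 1 year arrays. Its value on SAMR1 16 weeks replicate 1 was 0.15 log2 units above the highest of the other groups, and its value on replicate 2 was within their range. *Hcrt* stood at percentiles 26.3 to 36.3 of the probe sets, so it may not report a change. Its correlation with *Pmch* over the 8 arrays was 0.614. Both genes were highest on SAMR1 16 weeks replicate 1, and their correlation without that array was not computed.

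The peptides of the arcuate nucleus were not raised on any array. *Pomc*, the precursor of the melanocortins that lower food intake, spanned 3.91 to 4.13 in its brighter probe set and 3.34 to 3.65 in the other. *Agrp*, which blocks the melanocortin receptors and drives feeding, spanned 2.74 to 2.99. *Agrp* stood at percentiles 4.1 to 11.5 and the brighter *Pomc* probe set at 40.4 to 45.7, so both may not report a change. *Cartpt*, another peptide that lowers food intake, varied more and was lowest at 5.91 on SAMR1 1 year replicate 1, had a median of 6.41 and was highest at 6.74 on SAMR1 16 weeks replicate 2. For all 3 genes the SAMR1 16 weeks values were within 0.34 log2 units of the median of the other 6 arrays.

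*Trh*, which encodes the hormone that starts the thyroid axis, spanned 3.80 to 4.41, and its 2 highest values were those of SAMP8 16 weeks replicate 1 (4.41) and SAMP8 1 year replicate 2 (4.30). *Gal*, the precursor of galanin, a peptide of several hypothalamic nuclei, read 3.68 on SAMR1 16 weeks replicate 1 and 4.31 on replicate 2, its lowest and highest values of the 8 arrays. Its values on the other 6 arrays lay between 3.93 and 4.17. For *Gal* as for *Avp*, *Oxt* and *Cartpt*, replicate 2 was therefore the highest array of all 8, which was not so for *Pmch*, *Hcrt*, *Pomc*, *Agrp* and *Trh*. *Gal* and *Cartpt* exceeded the other groups there by 0.14 log2 units only. The share of all genes highest on a given array was not counted.

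A gene was called raised on an array where its signal lay at least 1 log2 unit above its median over the 8 arrays. On SAMR1 16 weeks replicate 1, 2 of the 9 members were raised, and 14 of all 19761 genes were (0.0708%). On replicate 2, again 2 of 9 members were raised, and 8 of all genes (0.0405%). *Pmch* and *Avp* were the only genes of the 19761 raised on both arrays. On the other 6 arrays none of the 9 members was raised, beside 20 of all genes raised on at least 1 of them (0.101%). Since those arrays chose the members, these counts are a description with no test. The members just inside and just outside the threshold were *Pmch* on replicate 2, 1.20 log2 units above its median, and *Oxt* on the same array, 0.54 log2 units above it.

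**Figure D2:**
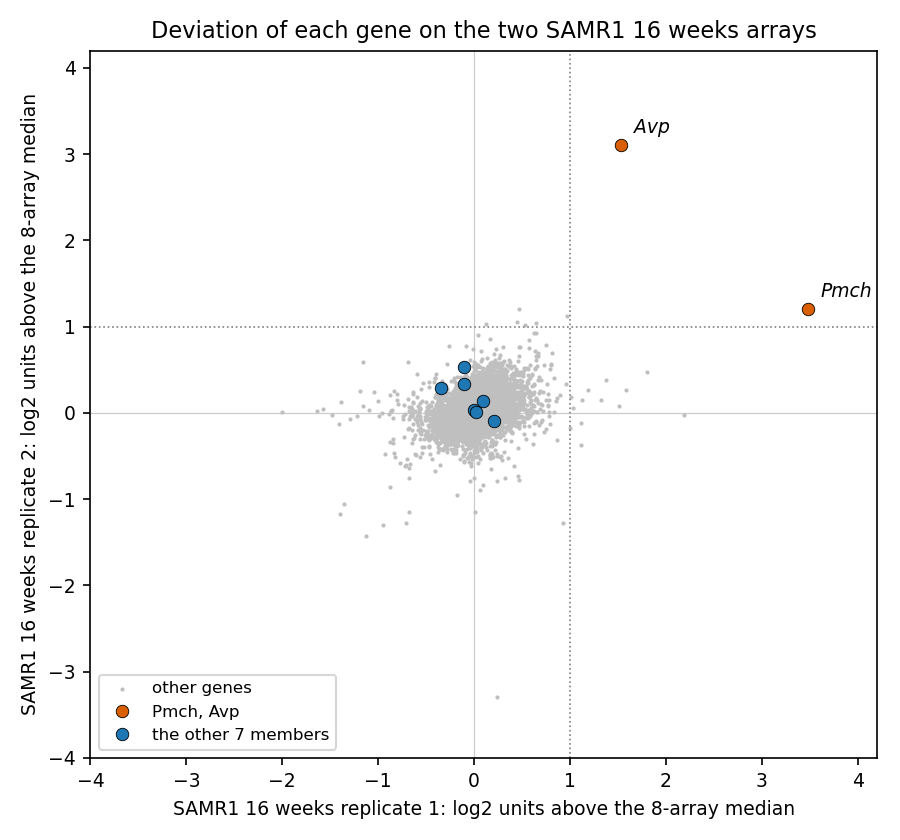
Log2 units above the gene's median over 8 arrays on SAMR1 16 weeks replicate 1 (x axis) and replicate 2 (y axis) for 19761 genes, with the members in colour and dotted lines at 1 log2 unit. *Pmch* and *Avp* are the only 2 genes beyond both dotted lines, on opposite sides of the diagonal.

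The comparisons of the study were then read for the 9 genes. In physiological aging, SAMR1 at 1 year against SAMR1 at 16 weeks, *Pmch* was lower by a factor of 5.08 in the older mice (log2 difference −2.34, SE 0.558) and *Avp* by a factor of 4.72 (−2.24, SE 0.388). In early events, SAMP8 against SAMR1 at 16 weeks, *Pmch* was lower by a factor of 5.31 in SAMP8 (−2.41, SE 0.558) and *Avp* by a factor of 5.01 (−2.32, SE 0.388). Both comparisons share the SAMR1 16 weeks arrays that chose the genes, so no test is given. The factors also depend on the low signals of the other groups, as given above. The other 7 genes differed by 0.35 log2 units at most in physiological aging and by 0.46 at most in early events, the values of *Cartpt* and *Oxt*. At an adjusted p under 0.05 in limma, 5.17% of all 19761 genes were called in physiological aging and 1.07% in early events. The unadjusted p was under 0.05 for 4567 and 2606 of them.

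The size of these differences rested on single arrays. Without SAMR1 16 weeks replicate 1, the *Pmch* difference was −1.20 in physiological aging and −1.27 in early events, and without replicate 2 it was −3.48 and −3.55. For *Avp* the order turned around, with −3.03 and −3.11 without replicate 1 and −1.46 and −1.54 without replicate 2. For *Oxt* in physiological aging, the difference of −0.18 became −0.50 without replicate 1 and 0.14 without replicate 2.

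**Figure D3:**
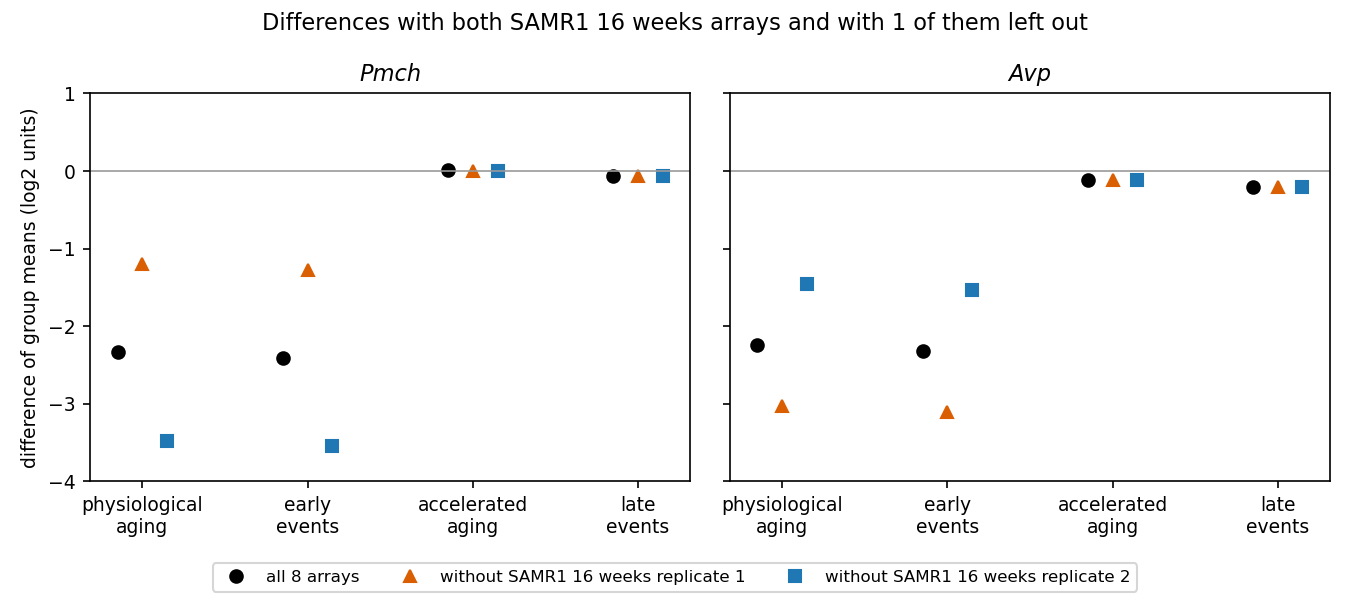
Difference of the group means in log2 units (y axis) of *Pmch* and *Avp* in the 4 comparisons (x axis), with all 8 arrays (black circles) and without each of the SAMR1 16 weeks arrays (triangles and squares). The *Pmch* difference in early events moved between −1.27 and −3.55, whereas the values of accelerated aging and late events stayed near 0.

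In the comparisons without SAMR1 16 weeks arrays, no member passed the test. In accelerated aging, SAMP8 at 1 year against 16 weeks, limma called 0 of 9 members at an adjusted p under 0.05, and 0 had an unadjusted p under 0.05. In the same comparison 5.09% of all genes were called, and 4683 of the 19761 had an unadjusted p under 0.05. The *Pmch* difference was 0.01 log2 units with a 95% interval from −1.27 to 1.28, a wide interval because the fit pools the spread of the SAMR1 16 weeks arrays. *Oxt* had the largest difference, 0.33 log2 units (SE 0.219, adjusted p = 0.404 in limma), with arrays that overlapped between the ages.

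In late events, SAMP8 against SAMR1 at 1 year, limma again called 0 of 9 members, with 0 at an unadjusted p under 0.05. Of all 19761 genes 0.617% were called, and 1499 had an unadjusted p under 0.05. *Trh* had the largest difference, 0.23 log2 units (SE 0.177, adjusted p = 0.908 in limma). *Avp* was 0.21 log2 units lower in SAMP8 (SE 0.388, adjusted p = 0.992 in limma). The SAMP8 1 year arrays did not overlap the other group for *Avp* and *Gal* in accelerated aging and for *Avp* and *Agrp* in late events, 2 of 9 members each time. The same held for 53.3% and 39.1% of all genes.

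The transcripts most like *Pmch* over the 8 arrays were, in order, *Ddc*, *Cabp7*, *Dsp*, *Slc17a6*, *Ndrg1*, *Parp8*, *Tcf7l2*, *Slc18a2*, *Slc6a3* and *Ret*, with Pearson r from 0.983 down to 0.915, among 596 genes with a range of at least 1 log2 unit. Without SAMR1 16 weeks replicate 1 their r with *Pmch* lay between −0.266 (*Slc6a3*) and 0.849 (*Ddc*), so this array carries much of the likeness. All 10 were higher on it than on any array of the other groups, and 5 of them were so on replicate 2 as well. *Ddc* encodes the decarboxylase that makes dopamine and serotonin. It read 6.41 and 5.09 on the SAMR1 16 weeks arrays and 4.47 to 4.87 on the other 6, which was the same order as *Pmch*. *Slc6a3*, the dopamine transporter, read 6.32 on replicate 1 and 4.11 on replicate 2, against 3.99 to 4.34 on the other 6 arrays. *Slc18a2*, which loads monoamines into vesicles, read 4.35 and 2.92, against 2.70 to 3.14. These 2 genes were thus high on replicate 1 alone. *Slc17a6*, the vesicular glutamate transporter of thalamic and many hypothalamic neurons, read 8.04 and 7.05, against 6.37 to 6.76.

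The transcripts most like *Avp* were *Scaf1*, *Map2k5*, *Baiap3*, *Sparc*, *Zfr*, *Morn2*, *Zfp606*, *Hint2*, *Dlk1* and *Mog*, with r from 0.933 down to 0.828, and from 0.931 to 0.822 without SAMR1 16 weeks replicate 1. All 10 were higher on both SAMR1 16 weeks arrays than on any other, but none spread between the 2 arrays as *Avp* did. For *Map2k5*, *Zfr*, *Morn2*, *Zfp606* and *Hint2*, both SAMR1 1 year arrays were also above all SAMP8 arrays. The probe sets of *Map2k5*, *Zfr* and *Zfp606* were picked for their likeness to *Avp* and were not the brightest of those genes. *Morn2*, for example, read 4.01 and 4.06 against 3.40 to 3.60. *Avp* showed no such split by strain at 1 year against all SAMP8 arrays. *Baiap3*, which acts in the return of dense-core vesicles, read 5.61 and 5.80 against 4.74 to 5.24 on the other 6 arrays. *Dlk1*, a Notch-like membrane protein, read 5.03 and 5.05 in the probe set with this pattern, against 3.87 to 4.59. No gene was in both lists of 10. With 8 arrays, and 2 of them far from the rest, these correlations are a description of a shared pattern.

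Other hypothalamic neuropeptides were measured for 9 genes. None was raised on any array, and limma called 0 of 9 in all 4 comparisons, while 0 in physiological and 1 in accelerated aging had an unadjusted p under 0.05, as did 1 in early and 2 in late events. Among them *Tac2*, which encodes neurokinin B, was lowest on SAMR1 16 weeks replicate 1 and read 5.48 on replicate 2, against 5.01 to 5.28 on the arrays of the other groups. *Nts*, the precursor of neurotensin, read 5.26 and 5.95, against 4.83 to 5.89. *Npvf*, the precursor of RFamide-related peptides of the dorsomedial hypothalamus, read 3.83 and 3.60, against 3.59 to 3.68. *Nucb2*, the precursor of nesfatin, read 5.63 and 5.91, against 5.49 to 5.81. *Tac2*, *Nts* and *Nucb2* were highest on replicate 2, and the other genes of this list were not.

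Of the receptors through which these peptides act, 16 genes were measured. Limma called 0 of 16 in any comparison with all arrays, with 3, 3, 3 and 0 at an unadjusted p under 0.05 in the same order of comparisons. Without SAMR1 16 weeks replicate 2, some of these genes were called. Such a fit leaves 1 array in that group, so its calls cannot tell a group difference from a deviation of that array. *Trhr*, the receptor of thyrotropin-releasing hormone, was the furthest above its median on a SAMR1 16 weeks array, with 4.62 on replicate 1 and 3.93 on replicate 2 against 3.34 to 3.82 on the other 6. *Mchr1*, the receptor of melanin-concentrating hormone, spanned 5.61 to 6.02, and *Avpr1a*, the vasopressin receptor of brain, spanned 3.79 to 4.62 with its lowest value on SAMR1 16 weeks replicate 1.

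Among 14 genes of prohormone processing and dense-core vesicles, limma called 2 lower in physiological aging and 1 lower in accelerated aging. Between the strains it called 0 at either age, with 6 (16 weeks) and 4 (1 year) at an unadjusted p under 0.05. *Pcsk1n*, which encodes an inhibitor of the convertase that cuts prohormones, read 9.16 and 9.62 on the SAMR1 16 weeks arrays, 8.78 and 8.78 on the SAMR1 1 year arrays, 9.16 and 8.94 on the SAMP8 16 weeks arrays, and 8.35 and 8.51 on the SAMP8 1 year arrays. It fell with age in SAMR1 (log2 difference −0.61, adjusted p = 0.0461) and in SAMP8 (−0.62, adjusted p = 0.0450). The strains did not differ in this change beyond its error (−0.01, SE 0.200, adjusted p = 0.992 for the interaction in limma). *Scg3*, a secretogranin that sorts cargo into the vesicles, fell in SAMR1 (−0.29, adjusted p = 0.0410). These calls were near the threshold: the *Pcsk1n* call was lost in 7 of 8 fits without 1 array in SAMR1 and in 6 of 8 in SAMP8, and the *Scg3* call in all 8 (adjusted p from 0.0509 to 0.199). The convertase *Pcsk2* spanned 9.46 to 9.74, and *Cpe*, the carboxypeptidase of prohormones, spanned 11.51 to 11.60.

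Of the neuropeptides that cortical neurons themselves make, 10 were measured. *Vip*, the peptide of a class of cortical interneurons, read 7.82 and 7.69 on the SAMR1 16 weeks arrays, 7.88 and 7.77 on the SAMR1 1 year arrays, 8.62 and 8.69 on the SAMP8 16 weeks arrays, and 7.98 and 8.07 on the SAMP8 1 year arrays. The 2 young SAMP8 arrays were above all others. It was the 1 gene of 10 called higher in early events (log2 difference 0.90, SE 0.076, adjusted p = 0.00113) and the 1 called lower in accelerated aging (−0.63, adjusted p = 0.0123), while 0 of 10 were called in physiological aging and late events (3 and 1 at an unadjusted p under 0.05). In physiological aging, the genes called and their direction depended on which SAMR1 16 weeks array was left out, and such a fit leaves 1 array in that group. The early events call of *Vip* held in all 8 fits without 1 array. Its accelerated aging call was lost in 3 of 8, those without SAMP8 16 weeks replicate 2 or either SAMP8 1 year array, with an adjusted p of up to 0.0933. Its change with age in SAMP8 minus that in SAMR1 was −0.70 (SE 0.107, adjusted p = 0.185 for the interaction in limma). The paper lists *Vip* among its 10 most raised genes in early events, so the early events call is not a separate test. *Penk* and *Tac1*, which are also strong in the striatum, were lowest on SAMR1 16 weeks replicate 1, at 8.35 and 8.07, against 9.23 to 9.84 and 8.68 to 9.26 on the arrays of the other groups.

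The tissue that each array carried was read from marker lists. Of the 12 cerebral cortex markers, none lay 1 log2 unit from its median on any array, and *Tbr1* spanned 8.08 to 8.52. The summed linear signal of the 12 was 4127 to 4190 in SAMR1 and 4539 to 4787 in SAMP8 at 16 weeks, and 4456 to 4653 in SAMR1 and 4364 to 4438 in SAMP8 at 1 year. Limma called *Mef2c* higher in physiological aging (0.29, adjusted p = 0.0339), *Fezf2* (−0.51, adjusted p = 0.0275) and *Nrn1* (−0.42, adjusted p = 0.0372) lower in accelerated aging and *Lamp5* higher in early events (0.46, adjusted p = 0.0350). Each of these 4 calls was lost in 5 or more of the 8 fits without 1 array.

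Of 21 measured transcription factors that define hypothalamic nuclei, 0 were raised on any array. For 8 of them the highest value was on SAMR1 16 weeks replicate 1, and for 4 on replicate 2. How many of all genes were highest on these arrays was not counted. Limma called 0 of 21 in any comparison with all arrays (2, 1, 0 and 1 at an unadjusted p under 0.05). Without SAMR1 16 weeks replicate 2 some were called in physiological aging, in either direction, with 1 array left in that group. The median deviation of the 21 factors was 0.02 log2 units on SAMR1 16 weeks replicate 1 and 0.03 on replicate 2. Apart from *Otp*, *Nr5a1*, *Isl1* and *Arnt2*, they read below the median of every array (4.32 to 4.36). Without detection calls, probe sets with such low signals may not report a change. *Sim1*, which the neurons of the paraventricular and supraoptic nuclei need, read 4.04 and 4.16 on the SAMR1 16 weeks arrays, against 3.90 to 4.09 on the other 6. *Lhx9*, a factor of the lateral hypothalamus and thalamus, read 3.58 on replicate 1, against 3.11 to 3.29 on the other groups. *Isl1*, which marks arcuate and also striatal neurons, read 3.92 on replicate 1 and 5.20 on replicate 2, its lowest and highest values. Summed linear signals of the list were 736 to 791 in SAMR1 at 16 weeks and 720 to 831 in the other groups.

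The 6 genes of hypothalamic amine neurons and tanycytes were split. *Ddc* and *Slc18a2* were raised on SAMR1 16 weeks replicate 1, as given above, while *Hdc*, the enzyme of histamine neurons of the hypothalamus, spanned 4.29 to 4.42. *Dio2*, the deiodinase of tanycytes and astrocytes, was called higher in early events (0.57, adjusted p = 0.0374) and lower in accelerated aging (−0.51, adjusted p = 0.0308). Its difference with age in SAMR1 was 0.40 (adjusted p = 0.0553), and its change with age in SAMP8 minus that in SAMR1 was −0.91 (SE 0.142, adjusted p = 0.189 for the interaction in limma). Without SAMR1 16 weeks replicate 2, genes of this list were called lower in physiological aging and early events, with replicate 1 alone in that group. Without 1 array, the early events call of *Dio2* was lost in 5 of 8 fits and the accelerated aging call in 6 of 8.

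Pituitary genes were not raised on any array (0 of 10). *Prl*, *Gh*, *Cga* and the other 7 read between 2.84 and 3.91, below the array medians, and the summed signal was 107 to 115 in every group. Probe sets with such low signals may not report a change. Limma called 0 of 10 in all 4 comparisons, with 2 at an unadjusted p under 0.05, both in accelerated aging.

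Some markers of neighbouring tissue moved on the same array as *Pmch*. Of 10 thalamic genes, 3 were raised on SAMR1 16 weeks replicate 1 and 0 on every other array, and 6 of the 10 had their highest value there. The 3 were *Tcf7l2*, *Slc17a6* and *Cabp7*, which are also among the genes most like *Pmch*, so the 2 readings are not separate. As for the members, the share of all genes highest on this array was not counted. *Tcf7l2* read 6.79 on this array and 5.25 to 5.80 on the other 7, and *Cabp7* read 7.25 there and 5.41 to 5.94 on the other 7. The summed signal of the list was 928 to 1233 in SAMR1 at 16 weeks and 754 to 934 in the other groups. In limma, *Slc17a6* was called lower in physiological aging (−1.06, adjusted p = 0.0489) and *Prkcd* lower in early events (−0.73, adjusted p = 0.0111), and these calls were lost in 6 and 2 of the 8 fits without 1 array. The paper lists *Slc17a6* and *Cabp7* among its 10 most lowered genes in physiological aging, so the *Slc17a6* call is not a separate test. *Prkcd* read 6.38 and 6.21 on the SAMR1 16 weeks arrays and 5.96 and 5.91 on the SAMR1 1 year arrays. All SAMP8 arrays were lower, at 5.43 to 5.69. *Tcf7l2* also read higher on all SAMR1 arrays (5.54 to 6.79) than on the SAMP8 arrays (5.25 to 5.40). Strain and tissue were not separated for these genes. *Gbx2*, a factor of the developing thalamus, stayed between 2.80 and 3.03. *Zic1* had its lowest value of the 8 arrays on SAMR1 16 weeks replicate 1 (7.52). *Calb2* read 7.39 on that array, below 7.62 on SAMP8 16 weeks replicate 1 and 7.78 on SAMP8 1 year replicate 2.

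Striatal genes went the other way. Of 10, 9 had their lowest value on SAMR1 16 weeks replicate 1, and 5 lay at least 1 log2 unit below their median there, against 0 on every other array. On this array 17 of all 19761 genes lay that far below their median, and the share lowest on it was not counted. *Drd1*, a dopamine receptor of striatal projection neurons, read 6.70 on this array and 8.33 on replicate 2, against 8.07 to 8.57 on the arrays of the other groups. *Gpr6*, an orphan receptor of striatal neurons, read 5.09 and 7.11, against 6.89 to 7.34. The summed signal of the list was 1026 to 2697 in SAMR1 at 16 weeks and 2333 to 2825 in the other groups. Limma called 0 of 10 in each comparison with all arrays (0, 0, 1 and 0 at an unadjusted p under 0.05). Without SAMR1 16 weeks replicate 2, most of the list was called higher in physiological aging and early events. That fit has replicate 1 alone in its group, so the calls describe the deviation of 1 array. The same omission called cortical neuropeptides higher and thalamic genes lower in early events, and thalamic genes lower in physiological aging, again from that 1 array.

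Dopamine neuron genes were added as a list of 13 after *Slc6a3*, *Slc18a2* and *Ddc* had been seen among the nearest patterns, and are given without a test. These 3 were raised on SAMR1 16 weeks replicate 1, and 5 of the 13 had their highest value there, without a count over all genes. *Th*, the enzyme that makes the dopamine precursor, read 4.51 on this array, below 4.75 on SAMP8 16 weeks replicate 1 and 5.32 on SAMP8 1 year replicate 2. Those were also the 2 arrays with raised olfactory bulb genes, such as *Cdhr1* at 6.87 and 7.23 against 4.63 to 5.26 elsewhere. The midbrain factors *Pitx3*, *En1* and *Foxa2* did not stand out, at 2.73, 2.54 and 3.87 on SAMR1 16 weeks replicate 1. They read below the array medians on every array, so they may not report a change. Choroid plexus genes did not follow the neuropeptides: *Ttr*, the transthyretin of choroid plexus, read 11.82 on SAMR1 16 weeks replicate 1 and 8.29 on replicate 2, but 12.12 on both SAMR1 1 year arrays, where *Pmch* and *Avp* were low. Limma called 0 of 12 choroid plexus genes (3, 2, 1 and 3 at an unadjusted p under 0.05) and 0 of 7 olfactory bulb genes (0 in each) in the 4 comparisons. Choroid plexus genes were called higher in physiological aging without SAMR1 16 weeks replicate 1, and lower in early events without replicate 2. Each of these fits leaves 1 array in that group. The part of these tissues in the *Pmch* and *Avp* result was not tested.

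**Figure D4:**
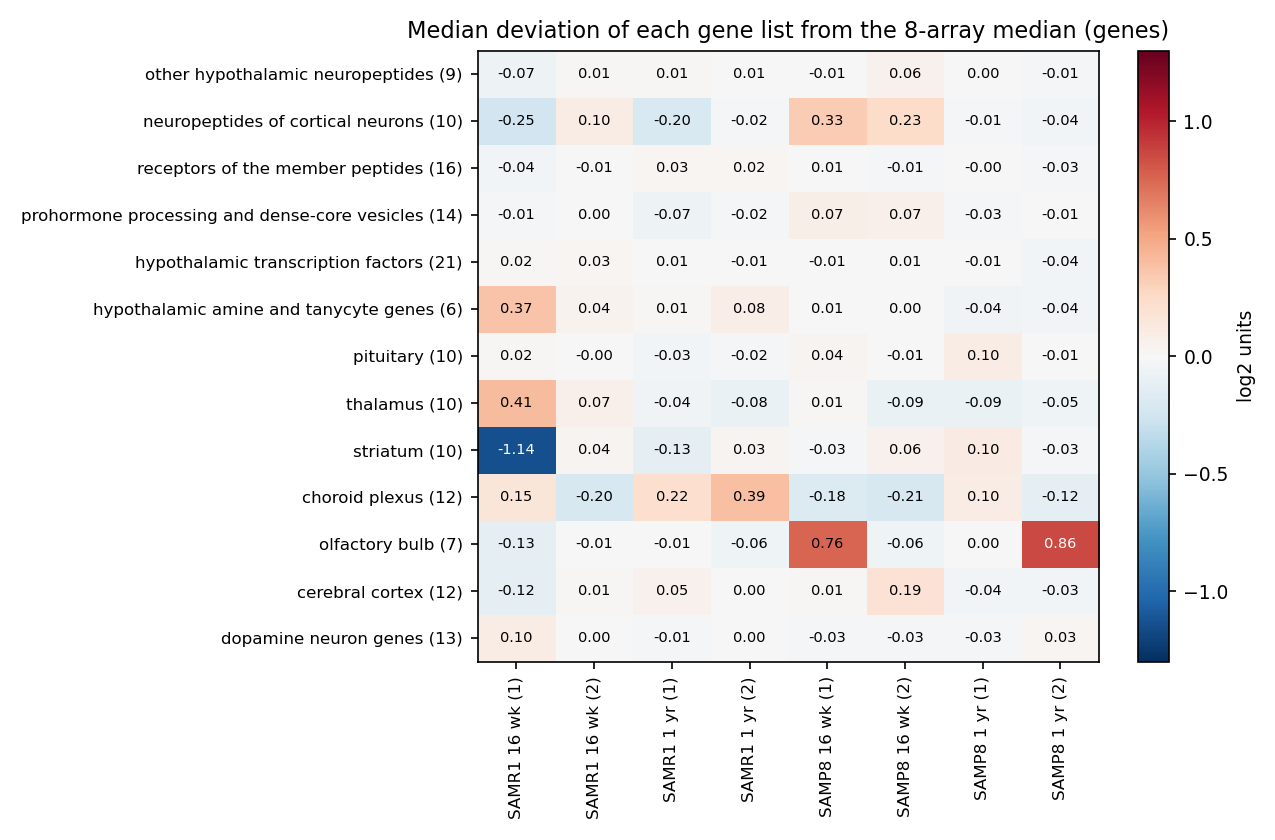
Median over the genes of each list (rows, number of genes in brackets) of their log2 deviation from the 8-array median, by array (columns). SAMR1 16 weeks replicate 1 stands out with thalamic genes above and striatal genes below their medians, while the list of hypothalamic transcription factors lies at 0.02 and 0.03 on the 2 SAMR1 16 weeks arrays. Most of these factors have signals below the array medians and may not report a change.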

How the data were processed

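The authors hybridised RNA of dissected cortex to Mouse Genome 430 PM array strips and deposited log2 signals of each array after the robust multichip average (RMA), without raw scans or detection calls. The submitters' processing notes name RMA, Transcriptome Analysis Console and limma, with no version. The deposited series matrix held the same log2 values. The authors' comparison tables also hold fold changes, p-values and false discovery rates, which were not used; their group means, from a separate RMA run for each comparison, served as an alternative added after the data were seen.

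Of 45077 probe sets, 40 controls were left out. Groups follow the sample titles, because SAMP8 samples carry SAMR8 as their genotype. Limma 3.58.1 (R 4.3.3) was fitted with 4 group means to 8 arrays and 45037 probe sets, with Benjamini-Hochberg adjustment, and was tested on simulated data. A gene was read from its brightest probe set carrying a single symbol, except among the nearest patterns. The number of arrays and the absence of background values limit the precision. Percentiles rank a signal among all probe sets of its array, and amounts of transcript were not compared between probe sets.

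The members and lists were chosen with earlier results of these data known. All members are named; from each other list, up to 4 genes per comparison were named, those called by largest difference, and otherwise those highest above their median in a SAMR1 16 weeks array. *Mchr1*, *Avpr1a*, *Sim1*, *Hdc*, *Gbx2*, *Zic1*, *Calb2*, *Th*, *Pcsk2*, *Cpe*, *Penk*, *Tac1*, *Drd1*, *Gpr6*, *Ttr*, *Cdhr1*, *Tbr1*, *Prl*, *Gh*, *Cga* and the midbrain factors were named after their values were seen. Nearest patterns took the 10 highest correlations, each gene with its probe set of highest correlation. For *Ndrg1*, *Ret*, *Map2k5*, *Sparc*, *Zfr*, *Zfp606* and *Dlk1* this was not the brightest probe set. Promoters came from RefSeq (GRCm38.p6); the build of the array annotation is not given in the sources used here.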

Additional observations from a re-analysis of the deposited data

How the results depend on the processing

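The members raised on each SAMR1 16 weeks array (2) and on the other 6 (0) did not change under any of the 6 alternatives tried, among them a threshold of 0.58 log2 units, other scalings and the median of the other 6 arrays. In accelerated aging and late events no member was called under any alternative. Small member differences changed sign, such as that of *Oxt* in physiological aging (−0.18, and 0.14 without SAMR1 16 weeks replicate 2) and that of *Cartpt* in early events (−0.03, and 0.12 with the authors' separate RMA run). Of 36 member differences, 1 moved by more than the spread between arrays with the mean over all probe sets (*Pomc* in early events) and 3 with the authors' separate RMA runs. With a mean of at least 5 log2 units required, only *Oxt* and *Cartpt* were left of the members.

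Counts of called probe sets were less stable. With all arrays they were 2466 (physiological aging), 2283 (accelerated), 554 (early events) and 310 (late events). Without 1 array they ranged from 19 to 2408, from 5 to 3671, from 172 to 1128 and from 104 to 401. With the 4 arrays of the comparison alone they were 0 (9746 at an unadjusted p under 0.05), 1355, 120 and 339, and with array weights, which were equal within each group, 2431, 2516, 274 and 631. Centring each array on its median turned the split in accelerated aging from 1020 higher and 1263 lower to 852 and 1660. With the replicate number as a replicate block the counts were 2699, 2508, 552 and 341, and no member call changed. The labels do not say whether the numbers pair the arrays. Deviations of replicate 1 correlated between groups by −0.09 to 0.20, and a shared batch was not tested. The cause of these shifts was not tested.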
